A study of Mus musculus with 10 samples.

Results

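The genes described here are 44 genes of the motile cilium, measured in mouse secondary palate at E14.5. They were taken by name (dynein arms, radial spokes, tektins and other parts of the cilium), and each was represented by the probe set with the highest mean over 10 arrays. All 44 had a probe set, out of 18194 genes on the array with a probe set of 1 gene symbol. The names were proposed with the mutant against control contrast of these arrays in view, and 9 of them were already known to be among the largest increases. Their differences between the groups are therefore a description and carry no p-value.

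The mutant group had 5 arrays of palate with the genotype Tgfbr2fl/fl;Wnt1-Cre, in which both alleles of Tgfbr2, the type II receptor of TGF-beta, are floxed. Wnt1-Cre recombines them in neural crest cells, the source of the palatal mesenchyme, while the palatal epithelium does not descend from these cells. The control group had 5 arrays with the genotype Tgfbr2fl/fl, so both groups carry the floxed alleles; the titles call the control wildtype. The strain label of both groups is C57B6 and the sex was not determined. The labels number the samples without saying that each is a separate embryo, so errors measure the spread between these samples only. The earlier stage named in the series design was not analysed here.

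Motile cilia are beating projections of specialised epithelial cells that carry many of them. In a motile axoneme, dynein arms on the outer doublet microtubules drive sliding, nexin links and radial spokes turn sliding into bending, a central pair apparatus tunes the beat, and tektins and other inner proteins stiffen the doublet wall. In the palate, the epithelium of the nasal side becomes a ciliated airway epithelium, the oral side becomes stratified, and mesenchymal cells carry primary cilia, which lack most of these parts. The forkhead factor Foxj1 and RFX factors, which bind a promoter element called the X-box, are the known activators of motile cilia genes.

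The X-box is the sequence feature that the choice of genes did not use, so promoters that hold a match close to the start are shown first. RefSeq promoter windows (GRCm38.p6, 250 bases before to 50 after each start, 300 bases in all) were at hand for 38 of the 44 genes, in 46 windows. Cfap53, Lrrc6, Cfap65, Tppp3, Rsph1 and Rsph4a were not matched. The full X-box was searched as GTTNCC, any 2 bases and GGNAAC, where N is any base, with up to 2 of its 10 fixed letters differing; it reads the same on both strands. The 60 bases before the start follow for 6 genes, in lower case with the match in capitals. Position -1 is the base just before the start. Pifo (chr3:106001498-106001557, minus strand) has a match without a mismatch from -20, Hydin (chr8:110266917-110266976, plus strand) has 1 mismatch from -21, Dnaic2 (chr11:114727359-114727418, plus strand) has 2 from -34, and Lrrc23 (chr6:124779728-124779787, minus strand) has 2 from -39. Those 4 genes were higher in the mutant. Drc1 (chr5:30281333-30281392, plus strand, 1 mismatch from -19) and Dnaic1 (chr4:41569734-41569793, plus strand, 2 mismatches from -20) were not called.
Pifo: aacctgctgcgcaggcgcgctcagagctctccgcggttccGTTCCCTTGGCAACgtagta
Hydin: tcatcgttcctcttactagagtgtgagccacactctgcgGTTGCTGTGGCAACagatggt
Dnaic2: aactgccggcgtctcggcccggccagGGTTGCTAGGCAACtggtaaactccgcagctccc
Lrrc23: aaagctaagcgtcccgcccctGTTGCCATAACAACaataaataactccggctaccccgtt
Drc1: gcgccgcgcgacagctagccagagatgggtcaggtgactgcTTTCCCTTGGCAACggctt
Dnaic1: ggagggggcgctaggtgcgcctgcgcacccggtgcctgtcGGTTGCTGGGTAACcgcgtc

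The match was common in both kinds of motile cilia gene. It stood in 24 of 46 windows (52.17%), against 13.93% of all 32851 RefSeq windows of this length. By gene, 16 of 27 called genes with a window (59.26%) and 6 of 11 uncalled genes (54.55%) had a match, so nearly equal shares of both held the full pattern. A match wholly within the 60 bases before the start stood in 12 of 46 windows (26.09%), against 2.91% of all windows. The shorter half-site GTTGCC, which can overlap the full pattern and was counted on both strands with no mismatch, stood in 17 windows (36.96%, against 12.51%). By gene, the half-site stood in 13 of 27 called genes (48.15%) and 3 of 11 uncalled genes (27.27%), and this difference was not tested. The forkhead letters TGTTTAC stood in 3 windows (6.52%, against 3.65%). Primary cilium genes, which RFX factors are known to serve as well, had the full pattern in 40.82% of their 49 windows and the half-site in 42.86%. The forkhead letters stood in 0 of these windows, and the differences between the sets were not tested. These are matches of letters and were not tested as binding sites.

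Array values are log2 levels on the authors' scale, with array medians of 6.4 or 6.5. A gene was called at an adjusted p under 0.05 in limma over all 18194 genes. Over all genes, 529 were higher in the mutant (2.91%) and 975 lower (5.36%), and the median log2 fold change was 0. The share of higher genes among called genes was 35.2%, and it was 73.0% when each array was centred on its median, which shifted the median of all genes by 0.08. Control 1 stood slightly apart, with correlations of 0.985 to 0.989 with the other arrays, against 0.989 to 0.996 among the other 9. Tgfbr2 itself read 10.7 to 10.8 in the mutant arrays and 10.5 to 10.8 in the controls. The sources used here do not say whether its probe set lies in the deleted part, so this level does not check the labels. Palate mesenchyme markers read 7.9 to 13.6 in all arrays.

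Of the 44 motile cilia genes, 32 were called higher in the mutant by limma, none was lower (0 also at an unadjusted p under 0.05), and 12 were not called, beside 2.91% of all genes called higher. Since the contrast was used to choose the genes, nothing is read from this share. The log2 fold change ran from -0.16 to 2.20 with a median of 0.94, and it was above 0 for 42 of 44. The 9 known as large increases had a median of 1.34 and the other 35 had 0.88, with 23 of those 35 called. All 5 mutant arrays lay above all 5 controls for 20 of 44 genes, beside 1.82% of all genes. The 12 genes not called had a median of 0.24. In bulk tissue, more ciliated cells and more of these RNAs per cell cannot be told apart. Without control 1 the count called was 35 (3.8% of all genes higher), and without mutant 3 it was 20 (1.02%). Of the 32 calls, 20 held with any 1 array left out. As the contrast chose the genes, a call that held is not support for its difference. The others were lost without at least 1 of the 10 arrays: Ccdc113 and Rsph4a without any 1 of 8, Tekt1 and Cfap206 of 7, Lrrc6, Iqcg and Enkur of 6, Zmynd10 of 5, Hydin of 4, Dnaic2 of 3, and Ccdc40 and Spag16 without 1.

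**Figure D1:**
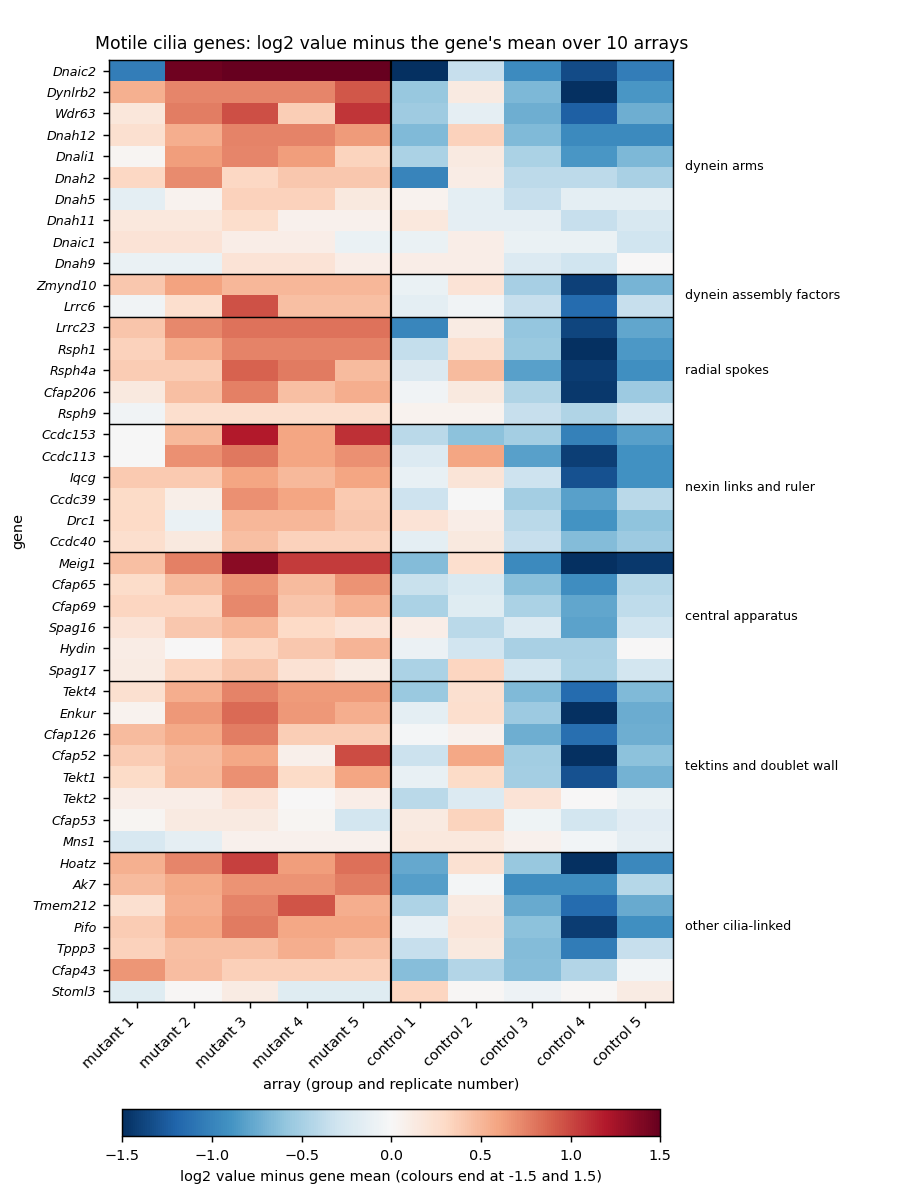
Each row is 1 motile cilia gene and each column 1 array (5 mutant, then 5 control); colour gives the log2 value minus the gene's mean over 10 arrays, with colours ending at -1.5 and 1.5, and lines separate the structural classes. The mutant columns are mostly above the gene mean, and control 4 is the lowest column for most genes. Control 2 is near the mean or above it for most genes, and below it for some, such as Ccdc153 and Cfap43.

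Dynein arms are the motors. Of 10 dynein genes, 6 were called higher and 4 were not, and the median log2 fold change was 0.90. Dynlrb2, a roadblock light chain, read 10.3, 10.5, 10.5, 10.5 and 10.7 in mutants 1 to 5 and 9.2, 9.9, 9.1, 8.1 and 8.9 in controls 1 to 5. The groups did not overlap, and the controls spread over a range several times that of the mutants. Its log2 fold change was 1.46 ± 0.25 (SE, n = 5 and 5). Its paralogue Dynlrb1, the light chain of ordinary cytoplasmic dynein, read 10.6 to 10.8 in all 10 arrays, with a log2 fold change of -0.04 ± 0.06 (0.04 after centring on array medians).

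Wdr63, an intermediate chain of an inner arm, read 5.6, 6.2, 6.4, 5.8 and 6.5 in the mutants and 4.9, 5.3, 4.7, 4.2 and 4.7 in the controls. These groups were also separate, and the difference was 1.34 ± 0.21. Dnaic2, an intermediate chain of the outer arm, had the largest value of all 44 genes (2.20 ± 0.49) with an exception inside the mutant group. It read 5.0 in mutant 1 but 7.5, 7.6, 7.7 and 7.9 in the other mutants, against 4.2, 5.7, 5.1, 4.7 and 5.0 in the controls. Mutant 1 thus lay among the controls. A second Dnaic2 probe set gave 0.10 and was not called. Its mean was 5.24 in the controls and 5.34 in the mutants, against 4.94 and 7.14 for the one used, which was the brighter of both only through the mutant arrays. The size of this difference therefore rests on 1 probe set that the highest-mean rule chose by its level in the mutants.

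The other called dynein genes were Dnah12, an inner arm heavy chain (1.16 ± 0.22), Dnali1, an inner arm light intermediate chain (0.94 ± 0.18), and Dnah2, an inner arm heavy chain (0.86 ± 0.16). Dnah2 was separate between the groups, and for Dnah12 and Dnali1 only the lowest mutant reached into the control range. Dnaic2 above belongs to the outer arm, and so do the 4 genes not called. They were the heavy chains Dnah5 (0.30 ± 0.10), Dnah11 (0.28 ± 0.09) and Dnah9 (0.12 ± 0.10) and the intermediate chain Dnaic1 (0.20 ± 0.08). Dnah9 had the smallest difference of the class and read 4.8, 4.8, 5.1, 5.1 and 5.0 in the mutants and 5.0, 5.0, 4.7, 4.6 and 4.9 in the controls. Those values overlap almost fully, near the lower end of the array's scale. The outer and inner arm genes were not tested against each other. The list of other axoneme genes below held called and uncalled genes of both arms. Its inner arm heavy chains Dnah1 (0.14) and Dnah7a (0.10) were not called. Dnah6 (0.90) and the inner arm intermediate chain Wdr78 (0.54) were. Its outer arm heavy chains Dnah8 (0.68) and Dnah17 (0.06) and light chain Dnal1 (0.12) were not called. Of its outer arm docking genes, Ttc25 (0.68) and Ccdc151 (0.64) were called, and Ccdc114 (0.26) and Armc4 (0.82) were not.

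Dynein arms are put together in the cytoplasm before they enter the cilium, and both genes for this step were called. Zmynd10 read 7.9, 8.1, 8.0, 8.0 and 8.0 in the mutants and 7.4, 7.7, 7.0, 6.1 and 6.8 in the controls, a difference of 1.00 ± 0.23 with no overlap. Lrrc6 read 4.1, 4.4, 5.1, 4.6 and 4.6 in the mutants and 4.0, 4.1, 3.8, 3.0 and 3.8 in the controls (0.82 ± 0.21). For Lrrc6, mutant 1 equalled control 2. The step has further genes in the list of other axoneme genes below. Of these, Dnaaf1 was called (0.96), while Dnaaf2 (-0.16), Dnaaf4 (0.20), Dnaaf5 (0.12) and Dnaaf6 (0.02) were not.

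Radial spokes reach from the doublets to the central pair. Of 5 spoke genes, 4 were called higher, with a class median of 1.16. Lrrc23 read 9.3, 9.6, 9.7, 9.7 and 9.7 in the mutants and 7.9, 9.0, 8.3, 7.5 and 8.1 in the controls (1.44 ± 0.22). The spoke head gene Rsph1 read 8.2, 8.4, 8.6, 8.6 and 8.6 against 7.5, 8.1, 7.3, 6.3 and 7.0 (1.24 ± 0.26). In both genes the groups were separate and control 2 was the control nearest the mutants. Rsph4a, another spoke head protein, gave 1.16 ± 0.29, although control 2 at 6.8 exceeded mutants 1 and 2 at 6.7. Cfap206, a spoke base protein, gave 0.94 ± 0.24. Rsph9, a spoke head protein as well, was the uncalled gene nearest the threshold: it read 7.5 in mutant 1 and 7.8 in the other 4, against 7.6, 7.6, 7.2, 7.1 and 7.3 in the controls (0.38 ± 0.11). Its difference is small beside those of the other spoke genes, and its spread is small as well.

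**Figure D2:**
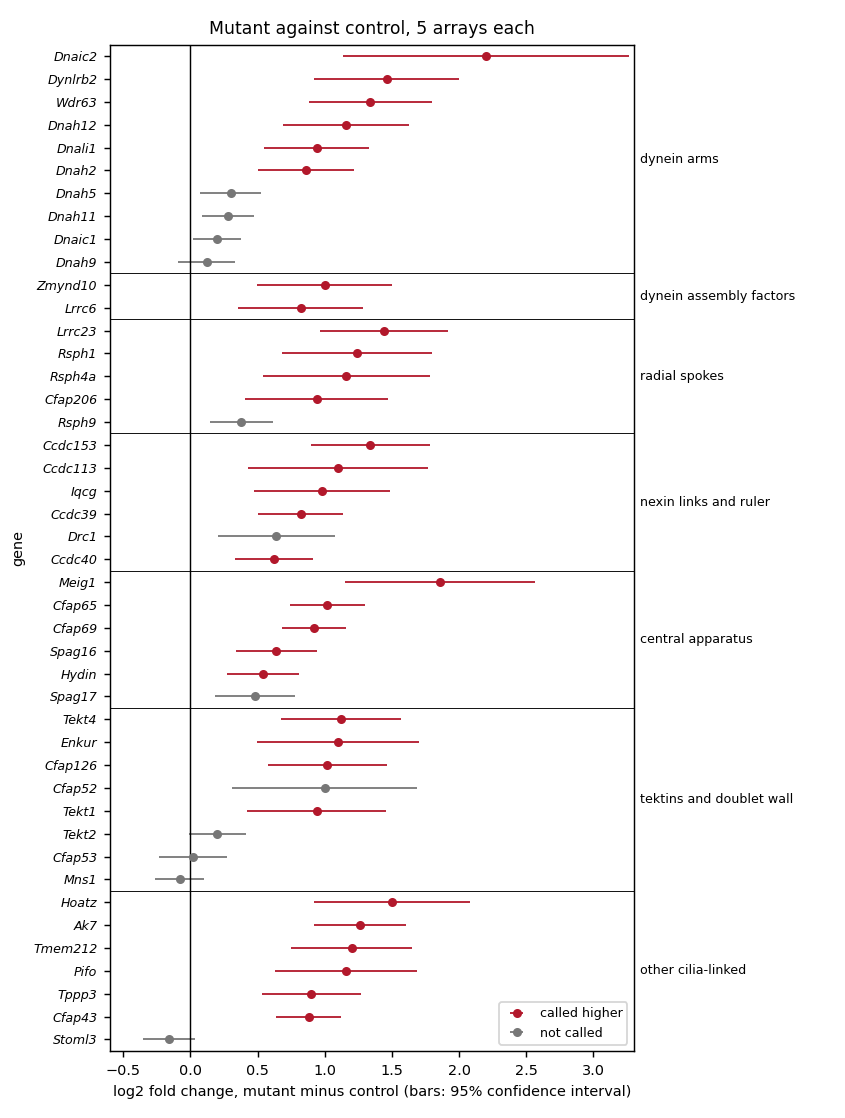
Points give the log2 fold change (mutant minus control) of each motile cilia gene with its 95% confidence interval from limma, 5 arrays in each group, grouped by structural class; red marks genes called higher and grey genes not called. Most values lie between 0.5 and 1.5, Dnaic2 is at 2.20 with the widest interval, and Mns1 and Stoml3 are below 0.

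Nexin links join neighbouring doublets, and the Ccdc39 and Ccdc40 proteins form the ruler that sets the spacing of spokes and inner arms. Of 6 genes, 5 were called higher, with a median of 0.90. Ccdc153, a nexin link subunit, read 5.8, 6.3, 7.0, 6.4 and 6.9 in the mutants and 5.4, 5.2, 5.3, 4.8 and 5.0 in the controls (1.34 ± 0.20). Here the mutants spread more widely than the controls, unlike most of the 44 genes. Ccdc39 read 7.9, 7.7, 8.3, 8.2 and 8.0 against 7.3, 7.6, 7.1, 6.8 and 7.2 (0.82 ± 0.15), with no overlap. Its partner Ccdc40 read 7.3, 7.2, 7.5, 7.4 and 7.4 against 6.9, 7.2, 6.7, 6.4 and 6.5 (0.62 ± 0.13). The ruler genes thus had similar values, and for Ccdc40 control 2 reached the lowest mutant.

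Ccdc113 was the called gene nearest the threshold. It read 5.8, 6.5, 6.6, 6.4 and 6.5 in the mutants and 5.6, 6.4, 5.0, 4.4 and 4.9 in the controls (1.10 ± 0.31), and control 2 lay inside the mutant range. Iqcg, a nexin link subunit, gave 0.98 ± 0.23 with separate groups. Drc1, needed to build the link, gave 0.64 ± 0.20 and was not called.

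The central apparatus is the pair of single microtubules with their projections. Of 6 genes, 5 were called higher, with a median of 0.78. Meig1, which binds Spag16 and is best known from sperm formation, read 7.0, 7.3, 7.9, 7.6 and 7.6 in the mutants and 5.9, 6.8, 5.6, 4.7 and 5.1 in the controls (1.86 ± 0.32). Its groups were separate, and its control SD of 0.80 was the largest of the 44 genes. Cfap69 read 7.3, 7.3, 7.7, 7.4 and 7.5 against 6.5, 6.8, 6.5, 6.2 and 6.6 (0.92 ± 0.11). With the smallest standard error of the called genes, its groups were separate as well. Cfap65 (1.02 ± 0.13) and Spag16 (0.64 ± 0.14) also had every mutant above every control. Hydin, a very large projection protein, gave 0.54 ± 0.12, the smallest value among the called genes. Spag17, a projection protein too, read 4.6, 4.8, 4.9, 4.7 and 4.6 against 4.0, 4.8, 4.2, 4.0 and 4.2 (0.48 ± 0.14) and was not called. Control 2 was level with mutant 2 for this gene, while the other controls lay below all mutants.

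Tektins are filament proteins of the doublet wall, and the class also holds proteins inside the doublets and at their base. Of 8 genes, 4 were called higher and 4 were not, with a median of 0.97. Tekt4 read 6.9, 7.2, 7.4, 7.3 and 7.3 in the mutants and 6.1, 6.9, 6.0, 5.5 and 6.0 in the controls (1.12 ± 0.20). Control 2 equalled mutant 1, and the rest were separate. Cfap126, known for placing basal bodies, read 9.6, 9.7, 9.9, 9.5 and 9.5 against 9.1, 9.2, 8.4, 8.0 and 8.4 (1.02 ± 0.20), with no overlap. Enkur (1.10 ± 0.28) and Tekt1 (0.94 ± 0.24) were called as well.

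Cfap52, a protein of the doublet interior, gave 1.00 ± 0.32 and was not called, with controls 4 and 2 far apart at 5.6 and 7.8; a second probe set gave 1.26 and was called. Tekt2 gave 0.20 ± 0.10 and Cfap53 gave 0.02 ± 0.12, a value whose sign changed with the processing. Mns1, also inside the doublets, read 7.8, 7.9, 8.1, 8.1 and 8.1 against 8.2, 8.2, 8.1, 8.0 and 7.9 (-0.08 ± 0.08). Its groups overlapped almost fully, and the 95% interval of the difference ran from -0.26 to 0.10.

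Among 7 other genes linked to cilia, 6 were called higher, with a median of 1.16, and all 6 had every mutant above every control. Hoatz, named for a role in motile cilia and sperm tails, read 7.9, 8.1, 8.4, 8.0 and 8.2 in the mutants and 6.6, 7.6, 6.8, 5.7 and 6.4 in the controls (1.5 ± 0.27). Ak7, an adenylate kinase of the cilium, read 7.4, 7.5, 7.6, 7.6 and 7.7 against 6.1, 6.9, 6.0, 6.0 and 6.5 (1.26 ± 0.16). Tmem212 read 6.3, 6.6, 6.8, 7.0 and 6.6 against 5.6, 6.2, 5.3, 4.9 and 5.3 (1.2 ± 0.21). In each of these genes control 2 was the highest control. Tppp3, a tubulin polymerisation protein, read 9.4, 9.5, 9.5, 9.6 and 9.5 against 8.7, 9.2, 8.4, 8.0 and 8.7 (0.90 ± 0.17). Pifo, linked to cilium disassembly, gave 1.16 ± 0.24 and Cfap43 gave 0.88 ± 0.11. Stoml3, known from cilia of olfactory neurons, read 3.9, 4.1, 4.2, 3.9 and 3.9 against 4.4, 4.1, 4.0, 4.1 and 4.2 (-0.16 ± 0.09), at the low end of the scale, and was not called.

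The choice of genes used the difference between the groups. That difference is made from these same arrays, so the order of arrays inside a group is not free of the choice. Inside the controls, the 44 genes kept a common order. Control 4 alone was the lowest control for 32 of 44 genes (72.7%), against 14.3% of all genes. Control 2 alone was the highest control for 32 of 44 (72.7%), against 13.6% of all genes. Inside the mutants, mutant 1 alone was lowest for 24 genes (54.5%, against 11.2% of all genes), and mutant 3 alone was highest for 21 (47.7%, against 14.3%). These counts are a description: genes read from the same arrays are not independent, and no test was made. Values carry 1 decimal, and a tie leaves no array alone at that end, which lowers the shares over all genes. The median deviation of the 44 genes from their own means was 0.24, 0.46, 0.68, 0.46 and 0.51 in mutants 1 to 5. It was -0.27, 0.13, -0.51, -0.99 and -0.58 in controls 1 to 5. The controls therefore differed among themselves by more than the highest control differed from the lowest mutant, while the groups did not overlap. The 12 uncalled genes showed the same control order at a smaller scale, from 0.10 in control 2 to -0.29 in control 4.

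The spread followed the same split. The SD was larger in the controls than in the mutants for 40 of 44 genes (90.9%), against 61.5% of all genes. Its median over the genes was 0.42 in the controls and 0.17 in the mutants, against 0.13 and 0.11 over all genes. The exceptions were Dnaic2, Ccdc153, Dnah5 and Mns1, and the mutant SD of 1.205 for Dnaic2 reflects the low value of mutant 1. Without control 4, the median log2 fold change of the 44 genes was 0.81, and without control 2 it was 1.09.

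**Figure D3:**
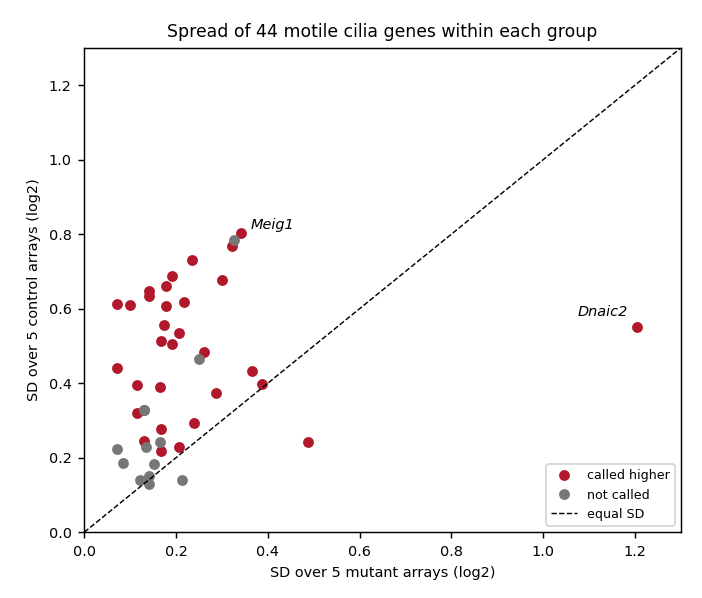
Each point is 1 motile cilia gene, with its SD over 5 mutant arrays on the horizontal axis and over 5 control arrays on the vertical axis, both in log2 units; red marks genes called higher, grey genes not called, and the dashed line equal SDs. Points lie above the line for 40 of 44 genes, and Dnaic2 is far to the right.

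Other axoneme genes, a list of 99 names of which 78 were measured and none of which is among the 44, gave smaller values, mostly in the same direction. By limma with adjustment over all genes, 25 of the 78 rose (32.1%, against 2.91% of all genes) and none fell (1 was lower at an unadjusted p under 0.05), and the median log2 fold change was 0.28. The smallest p-values were those of Maats1, a spoke protein (0.88 ± 0.15, limma adjusted p = 0.00751), Ttc25, a docking protein of the outer arm (0.68 ± 0.14, adjusted p = 0.0135), and Spag8 (0.82 ± 0.17, adjusted p = 0.0143). Maats1 read 5.6, 5.5, 6.1, 5.7 and 5.7 in the mutants and 5.0, 5.2, 4.4, 4.6 and 5.0 in the controls. Ttc25 read 6.0, 6.0, 5.9, 5.9 and 6.0 in the mutants and 5.5, 5.7, 5.2, 4.8 and 5.2 in the controls. Both were separate between the groups. Spag8 was not, with mutant 5 and control 2 both at 6.4. The within-group order was again present: control 4 alone was the lowest control for 41 of 78 genes and control 2 alone the highest for 38. The count of 25 depended on single arrays and each of 8 arrays changed it by over 1.5 times. It was 7 without mutant 3 (1.02% of all genes higher), 10 without mutant 2 (1.62%), 10 without control 5 (1.68%) and 11 without mutant 5 (1.63%). It was 11 without control 3 (1.4%), 15 without mutant 4 (1.76%), 15 without control 4 (1.93%) and 16 without mutant 1 (1.6%). This list was written with earlier results of these data known.

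The factors that switch on motile cilia and multiply their basal bodies were measured for 14 of 17 names, of which 4 rose by limma (28.6%, against 2.91% of all genes) and none fell (8 were higher and 0 lower at an unadjusted p under 0.05), with a median of 0.24. Foxj1, the forkhead activator, read 9.1, 8.6, 8.6, 8.6 and 9.2 in the mutants and 8.4, 8.4, 7.9, 7.2 and 7.8 in the controls, so that every mutant lay above every control. Its log2 fold change was 0.88 ± 0.22 (limma adjusted p = 0.0323). Deup1, which builds the platform for basal body multiplication, read 10.2, 10.5, 10.6, 10.5 and 10.5 against 9.5, 10.1, 9.3, 8.3 and 9.1 (1.2 ± 0.25, limma adjusted p = 0.0168). Ccno, a cyclin-like protein of the same step, read 9.4, 9.6, 9.7, 9.2 and 9.6 against 9.0, 9.3, 8.4, 8.0 and 8.3 (0.90 ± 0.21, limma adjusted p = 0.0272). Cdc20b, which acts there as well, gave 0.52 ± 0.10 (limma adjusted p = 0.0129) at 3.9 to 4.9. For Deup1 and Ccno, as for most of the 44 genes, control 2 was the highest control and control 4 the lowest.

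The X-box factors did not pass the test: Rfx2 gave 0.10 ± 0.06 (limma adjusted p = 0.366) and Rfx3 gave 0.26 ± 0.08 (limma adjusted p = 0.0751). Rfx2 read 6.6 to 6.9 in all arrays, and Rfx3 read 8.3 to 8.6 in the mutants and 8.1 to 8.4 in the controls. Mcidas and Gmnc were not analysed here. The calls of Foxj1 and Ccno were each lost when any 1 of 6 arrays was left out (mutants 1, 2, 3 or 5 or controls 3 or 5), and over all alternatives their adjusted p ran from 0.00679 to 0.0750 and from 0.00474 to 0.0705. The Deup1 call held in every alternative run. The count of 4 was 2 without any 1 of mutants 1, 3 and 5 and controls 3 and 5.

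Primary cilium genes, those of transport and of the transition zone that mesenchymal cells also use, gave a different result. Of 48 measured, 1 rose (2.1%, near the background of 2.91%), none fell (6 were higher and 2 lower at an unadjusted p under 0.05 in limma), and the median log2 fold change was 0.02. The exception was Ift22, a transport protein, with 0.46 ± 0.12 (limma adjusted p = 0.0325), a call lost when any 1 of 7 arrays was left out. It read 9.2, 9.4, 9.5, 9.5 and 9.4 in the mutants and 9.0, 9.3, 9.0, 8.6 and 8.8 in the controls. The list's array medians stayed between -0.09 and 0.07. Within that narrow range the controls took the same order as for the motile genes, with control 2 highest and control 4 lowest. The difference between the lists was not tested.

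**Figure D4:**
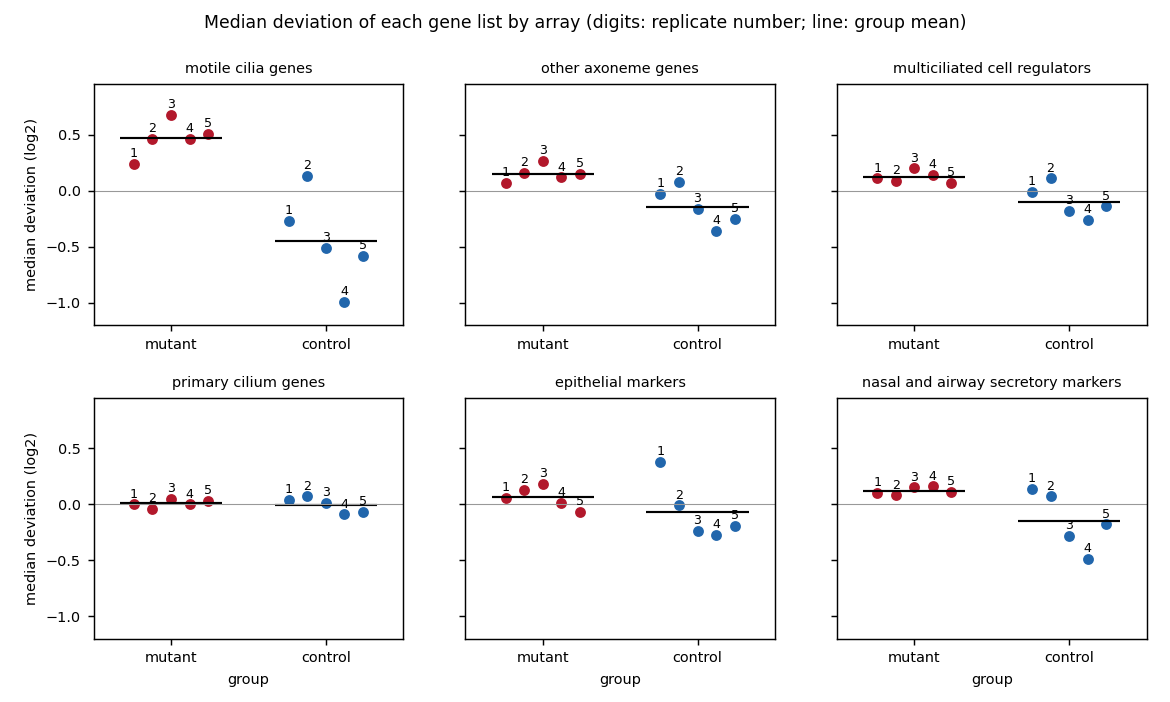
Each panel gives, for 1 gene list, the median over its genes of the log2 value minus the gene's mean, for 5 mutant (red) and 5 control (blue) arrays, with the replicate number above each point and a line at the group mean. The motile cilia genes run from -0.99 in control 4 to 0.68 in mutant 3, the primary cilium genes stay near 0, and the epithelial markers are highest in control 1 at 0.38.

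Motile cilia stand on epithelial cells, so markers of epithelium were read on the same arrays. Of 25 general epithelial markers, none was called by limma (4 were higher and 2 lower at an unadjusted p under 0.05), and 19 had values above 0, with a median of 0.12. By limma, Krt8, a simple epithelium keratin, had the smallest p (0.56 ± 0.17, adjusted p = 0.0638). The array medians of this list were -0.07 to 0.18 in the mutants and -0.27 to 0.38 in the controls. Control 1 was the highest control at 0.38 and alone held the highest value for 20 of 25 markers, whereas control 2 was highest for the motile genes. Controls 3, 4 and 5 were low in both. Without control 1, 6 of the 25 markers were called higher (3.8% of all genes), and without control 2 it was 1. With all 10 arrays kept, 4 were called higher with median centring and 4 with array weights. Both of these settings also called more genes higher over all genes than the main fit. The absence of calls thus depended on control 1 and on the processing. With the epithelial median of each array as a covariate, 36 of the 44 motile cilia genes were called higher (6.6% of all genes) and 1, Stoml3, lower at -0.23 (12.9% of all genes), and their median log2 fold change was 0.85.

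Markers of the nasal and airway secretory epithelium, the neighbours of ciliated cells, were above 0 for 16 of 17 genes, with a median of 0.32. None was called by limma, and 8 were higher and 0 lower at an unadjusted p under 0.05. Bpifa1, a secreted airway protein, gave 1.06 ± 0.32 (limma adjusted p = 0.0638). The array medians of the list were 0.08 to 0.16 in the mutants and -0.49 to 0.14 in the controls, lowest in control 4. Of 7 oral markers, 2 rose by limma (28.6%, against 2.91% of all genes) and none fell. At an unadjusted p under 0.05 in limma, 4 were higher and 0 lower. The 2 called were Krt4 (0.92 ± 0.17, limma adjusted p = 0.00907) and Krt13 (1.88 ± 0.38, limma adjusted p = 0.0147), both keratins of stratified oral epithelium. Krt13 read 7.9, 7.8, 9.0, 8.5 and 8.1 in the mutants and 6.0, 7.9, 6.3, 5.5 and 6.2 in the controls, again with control 2 high and control 4 low. The part of the amount of nasal or oral epithelium in the motile cilia result was not tested.

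Markers of 2 other tissues that bear motile or sensory cilia did not pass the test. Of 12 olfactory neuron markers, none was called by limma (2 at an unadjusted p under 0.05, median 0.10), with array medians of -0.03 to 0.07 in the mutants and -0.09 to 0.04 in the controls. Of 7 choroid plexus markers, none was called by limma (2 at an unadjusted p under 0.05, median 0.16), with array medians of 0.04 to 0.16 in the mutants and -0.27 to 0.11 in the controls. Neurod1 had the smallest p of the first list (0.30 ± 0.11, limma adjusted p = 0.105) and Aqp1 of the second (0.34 ± 0.10, limma adjusted p = 0.0527).

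By limma, 6 of 8 skeletal muscle markers fell (5.36% of all genes did), with a median of -1.79. The smallest p-values were those of Actn2 (-1.98 ± 0.39, limma adjusted p = 0.0131), Tnnt1 (-1.74 ± 0.36, limma adjusted p = 0.016) and Myh3 (-2.58 ± 0.61, limma adjusted p = 0.027), all parts of the contractile fibre. The Myh3 call was lost in 7 of 19 alternatives, 4 of which left out 1 array (mutant 2 or 3 or control 3 or 5). Their array medians were -1.5 to 0.55 in the mutants and 0.40 to 1.75 in the controls, with mutant 4 inside the control range. The order was not that of the motile cilia genes, in which control 2 was highest and mutant 4 well above all controls. Of 8 endothelial markers 1 was lower (Cldn5, -0.54 ± 0.10, limma adjusted p = 0.0112), and no leukocyte or erythroid marker was called by limma (2 of each list had an unadjusted p under 0.05). The smallest p of these lists were those of Cx3cr1 (0.34 ± 0.10, limma adjusted p = 0.0527) and the embryonic globin gene Hba-x (-0.64 ± 0.19, limma adjusted p = 0.0617). Among 12 palate mesenchyme markers Tbx22 was higher (0.62 ± 0.13, limma adjusted p = 0.0183) and Barx1 lower (-0.34 ± 0.09, limma adjusted p = 0.0325), a call lost in 11 of 19 alternatives, centring on array medians among them. The part of these tissues in the motile cilia result was not tested.

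A second reading came from genes with several probe sets. Of the 44 genes, 14 had more than 1, with 33 probe sets together, and the fit was repeated over all 34958 probe sets of 1 symbol, of which 1.5% were called higher. Dnali1 was called by both of its probe sets (0.94 and 0.88), Ccdc39 by its brightest at 0.82 and by another at 0.98 with the remaining one at 0.04, and Cfap43 by 0.88 and 0.84 with the remaining one at 0.08. In 8 genes some probe sets were called, in 5 none, and no probe set was called lower. Dnah2 was the 1 gene with probe sets of opposite sign, 0.86 for the brighter and -0.06 for the other. Spag16 was called by 1 of its 4, and Hydin by 1 of 2 (0.54 and 0.08). Cfap69 was called by its brightest at 0.92 and not by the others at 0.50 and 0.52. Lrrc6, called in the fit by gene, was called here by neither of its probe sets (0.82, just short of the threshold, and 0.20). Agreement between probe sets was thus better for Dnali1, Ccdc39 and Cfap43 than for Dnaic2, Dnah2, Hydin, Spag16 and Lrrc6.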

How the data were processed

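Total RNA of secondary palate was hybridised to an Affymetrix mouse array, 1 array per sample, 5 mutant and 5 control. Per the submitters' processing notes, the authors used RMA (no version given), and the deposited table holds its log2 output; RMA corrects background, equalises the distributions of the arrays and summarises probes. They carry 1 decimal, which makes ties common. Software and batches: not given in the sources used here. The number of arrays limits the precision.

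By the platform annotation, 34958 of 45101 probe sets had 1 gene symbol, 932 had several and 9211 had none; only the first were used, and 34754 of them were found in the RefSeq gene table (GRCm38.p6). Each of 18194 genes was represented by the probe set with the highest mean. Mutant minus control was tested with limma 3.58.1 in R 4.3.3 (lmFit and eBayes, two-sided, no filter, no covariate), adjusted by Benjamini-Hochberg over all genes and called under 0.05; the fit was first tested on simulated data. Errors are SE of the log2 fold change or SD over 5 arrays.

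The genes described, the lists and the rules were chosen with earlier results of these data known. Values by array are given for the 9 genes among the largest increases, for the largest, smallest and brightest of each class, for the called and uncalled gene nearest the threshold, and for Dnaic2. From each list up to 3 called genes with the smallest p, or 1 where none was called, are named. Foxj1, Rfx2, Rfx3, Dynlrb1 and Tgfbr2 are always named. Alternatives averaged a gene's probe sets, kept the brighter 60% of genes, fitted robustly with an intensity trend, or used quantile normalization, median centring, array weights, the replicate number as a block, Eif2s3y (a Y-linked gene) or the epithelial median as a covariate, or left out each array.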

Additional observations from a re-analysis of the deposited data

Results flagged for a closer look

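Over the named genes, 140 groups of 5 arrays (70 genes in 2 groups) were searched for an array far from the other 4, and 12 had one; chance gives about 1 in 20 groups by the nominal level of this search, which was not measured here for values rounded to 1 decimal and genes read from the same arrays, so 12 of 140 is not set against it. Mutant 1 was the array apart in 6 of the 12. It was low for Dnaic2 (5.0 against 7.5 to 7.9 in the other mutants), Lrrc23 (9.3 against 9.6 to 9.7), Rsph9 (7.5 against 7.8 in all others), Ccdc113 (5.8 against 6.4 to 6.6) and Deup1 (10.2 against 10.5 to 10.6), and high for Bpifa1 (11.5 against 10.8 to 10.9). Control 2 was high for Dnah12 (5.5 against 4.2 to 4.5 in the other controls) and Spag17 (4.8 against 4.0 to 4.2). Control 4 was low for Lrrc6 (3.0 against 3.8 to 4.1). Among the remaining mutants, mutant 2 was high for Dnah2 (7.1 against 6.7 to 6.8), mutant 5 low for Cfap53 (5.4 against 5.7 to 5.8), and mutant 4 high for Actn2, a muscle gene (7.8 against 5.7 to 6.3).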

How the results depend on the processing

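The median log2 fold change of the motile cilia genes kept its direction in every alternative, from 0.81 without control 4 to 1.09 without control 2. Their count called, 32, was 17 (of 20 tested) in the brighter 60% of genes, where fewer were tested, and 19 with the replicate block; without single arrays it ran from 20 (mutant 3) to 36 (control 2), and in the other 7 alternatives from 30 to 38. Of the 32, 20 were called without each array in turn and 18 in every alternative that tested them, and 8 of the uncalled 12 were called in at least 1. These counts describe the calls and are not support, since the contrast chose the genes. Over all genes 1504 were called, 532 with the replicate block, 3553 with the epithelial covariate and 643 (without mutant 3) to 1800 (without control 1) without single arrays. The count over all genes was 1459 of 10922 tested in the brighter 60%, 1757 with median centring and 2241 with array weights. It was 1194 with quantile normalization and 1041 with Eif2s3y as covariate. The 25 other axoneme genes became 12 in the brighter 60% (29 tested), 40 with median centring, 39 with array weights, 11 with the replicate block, and 7 to 35 without single arrays. The 4 cilia regulators became 8 with median centring and 2 to 5 without single arrays. The 1 primary cilium gene became 2 with quantile normalization, 2 with array weights, 2 with Eif2s3y as covariate, 4 with median centring, 0 with the replicate block and 0 to 2 without single arrays. With the epithelial covariate, 8 of the 48 were called, 3 higher (6.6% of all genes) and 5 lower (12.9% of all genes). The 0 called epithelial markers became 4 with median centring, 4 with array weights and 0 to 6 without single arrays. With the epithelial covariate, which they define, they became 7, of which 3 were higher and 4 lower. The sign turned for Dynlrb1 (0.04 with median centring), Tgfbr2 (-0.013 with the mean of all probe sets) and Cfap53: -0.024 with quantile normalization, -0.003 with Eif2s3y, -0.067 with the epithelial covariate, -0.01 without mutant 2 or mutant 3, -0.045 without control 4 and -0.02 without control 5. The causes were not tested.

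The replicate numbers did not pair the samples. Same-numbered arrays had correlations of -0.10 to 0.11 in their deviations, and no mutant matched its own number best, so a call lost under the block says nothing about its size. Values carry 1 decimal, so differences near 0.1 are at the limit of the table.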
